A study of Drosophila melanogaster with 3 samples.

Results

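The intronic Lhr-eGFP peaks described here are those places of Lhr binding that lie inside genes but away from their promoters. They were taken from the reproducible peak list of the series, which holds 5190 peaks on assembly dm6. A peak was kept when its summit lay more than 500 bp from every annotated start site, inside an intron and in no exon of any transcript, with pericentric summits left out (beyond 22 Mb on 2L and X and beyond 23 Mb on 3L, and below 5.4 Mb on 2R and 4.6 Mb on 3R). This gave 1048 peaks of 5190, or 20.2%. The rule used position only, with no measured value. The other classes under the same borders were 3206 promoter peaks, 582 intergenic peaks, 116 exonic peaks and 238 pericentric peaks. The study is a chromatin immunoprecipitation and sequencing (ChIP-seq) experiment on whole Drosophila melanogaster embryos, pooled from males and females and aged 0 to 14 h, of a fly line with a stable transgene for Lhr fused to GFP at the C-terminus. Sonicated chromatin of 200 to 800 bp was precipitated with an antibody given as anti-GFP in the labels' description and as Lhr in their antibody field. There are 3 biological replicate libraries of 1 group, called against 1 shared control alignment, which is not analysed here. The labels name no tissue, so the signal cannot be assigned to any cell type of the embryo.

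Lhr (Lethal hybrid rescue) is a chromatin protein best known for the lethality of hybrid males between fly species, where it acts with its partner Hmr. Both bind heterochromatin protein 1a (HP1a) and localise to pericentric heterochromatin, and both have also been found at insulator sites along the chromosome arms. Introns of the fly genome, above all the long first introns of developmental genes, hold many enhancers and boundary elements. Insulator proteins such as CTCF, Su(Hw), BEAF-32 and GAGA factor bind their own short DNA words there and mark the borders between regulatory domains.

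Some sequences under the intronic peaks carry the results that follow. All were read from the Release 6 genome (the assembly of dm6) and run 5′ to 3′ on the strand given. The first set shows the CTCF core word AGNTGGCGC, in capitals, with 20 bases on either side, at 12 intronic peaks. They were chosen to show strong peaks of this kind and some in ecdysone response and Hox genes, while the strongest, in EcR, is named only.
Asator chr4:486757-486805 (plus strand): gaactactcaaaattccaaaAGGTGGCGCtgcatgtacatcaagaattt
RapGAP1 chr2L:7535060-7535108 (plus strand): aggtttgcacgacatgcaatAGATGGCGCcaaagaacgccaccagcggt
Eip74EF chr3L:17597103-17597151 (plus strand): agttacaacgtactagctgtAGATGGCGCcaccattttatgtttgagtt
Jupiter chr3R:11613263-11613311 (minus strand): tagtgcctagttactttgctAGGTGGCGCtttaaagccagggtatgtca
Hr4 chrX:1953097-1953145 (minus strand): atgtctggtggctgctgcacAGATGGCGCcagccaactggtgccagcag
Eip75B chr3L:18019827-18019875 (plus strand): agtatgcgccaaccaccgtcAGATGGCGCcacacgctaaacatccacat
Eip75B chr3L:17988325-17988373 (plus strand): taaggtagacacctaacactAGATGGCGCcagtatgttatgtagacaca
Antp/CG46458 chr3R:6912376-6912424 (minus strand): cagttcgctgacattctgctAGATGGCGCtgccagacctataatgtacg
Abd-B chr3R:16969672-16969720 (plus strand): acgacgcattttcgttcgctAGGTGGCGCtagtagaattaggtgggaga
lncRNA:iab8 chr3R:16919205-16919253 (minus strand): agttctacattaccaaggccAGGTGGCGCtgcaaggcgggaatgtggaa
MSAmiP/lncRNA:iab8 chr3R:16834848-16834896 (minus strand): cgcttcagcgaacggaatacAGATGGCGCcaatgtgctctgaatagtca
lncRNA:bxd chr3R:16748711-16748759 (plus strand): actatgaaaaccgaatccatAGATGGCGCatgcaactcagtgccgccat
The second set shows 3 of the strongest intronic peaks, each as the 101 bases centred on the summit. They are shown because none of them holds any of the listed words described below.
COX7AL2 chr2L:2193554-2193654 (plus strand): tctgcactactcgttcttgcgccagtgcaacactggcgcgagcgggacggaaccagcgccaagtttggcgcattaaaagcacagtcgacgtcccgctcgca
ush chr2L:481009-481109 (plus strand): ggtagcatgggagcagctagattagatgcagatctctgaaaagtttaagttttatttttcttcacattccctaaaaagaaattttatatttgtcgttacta
Trl chr3L:14759467-14759567 (plus strand): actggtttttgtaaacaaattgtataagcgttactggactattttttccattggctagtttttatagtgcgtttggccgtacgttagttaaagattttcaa
The third set shows a 7-letter word, ACAGTGG, in capitals on one side of the summit and its reverse complement, CCACTGT, in capitals on the other. These 2 peaks show the inverted layout, and the whole stretch between the words is given with 15 bases outside each.
NFAT chrX:13640420-13640617 (plus strand): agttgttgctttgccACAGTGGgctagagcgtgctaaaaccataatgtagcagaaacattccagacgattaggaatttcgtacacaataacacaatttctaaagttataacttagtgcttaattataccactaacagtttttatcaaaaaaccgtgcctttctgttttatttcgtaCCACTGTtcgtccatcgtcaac
CG32264 chr3L:3785139-3785330 (plus strand): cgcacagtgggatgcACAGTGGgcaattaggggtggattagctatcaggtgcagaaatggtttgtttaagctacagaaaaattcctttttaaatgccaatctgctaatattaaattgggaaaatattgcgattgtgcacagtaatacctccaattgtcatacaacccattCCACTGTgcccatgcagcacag
The last set holds 1 peak with the promoter word TATCGATA (the DRE) and 1 with the promoter word GGTCACACT (bound by M1BP), in capitals. They are the exceptions among intronic peaks.
Stt3A chrX:21053301-21053348 (plus strand): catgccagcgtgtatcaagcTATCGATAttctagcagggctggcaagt
tna chr3L:10845268-10845316 (minus strand): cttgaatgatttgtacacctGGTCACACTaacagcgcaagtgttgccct

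The first question was how densely introns are bound. Eligible intron sequence, which meets the same rule as the summits, measured 46.6 Mb and held 22.5 intronic peaks per Mb. The libraries, each taken through its own 5190 strongest peaks, gave 24.7, 18.6 and 21.3 peaks per Mb for replicates 1, 2 and 3. The intergenic class held 20.03 peaks per Mb, with 21.9, 18.0 and 19.8 in the libraries. Intronic density was thus slightly higher than intergenic density in each library, with log2 ratios of 0.17, 0.05 and 0.11, and 0.17 in the reproducible list. The exact sign-flip permutation test over the 3 libraries gave p = 0.25 (two-sided), the smallest it can give, so no comparison here can pass 0.05. The sign of this small difference turned to -0.057 among the 2595 strongest peaks of the list, to -0.031 among the peaks found in all 3 libraries and to -0.012 without replicate 1, so introns and intergenic sequence could not be ordered. Exons held 4.47 peaks per Mb. Promoters held 179.8 peaks per Mb.

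**Figure D1:**
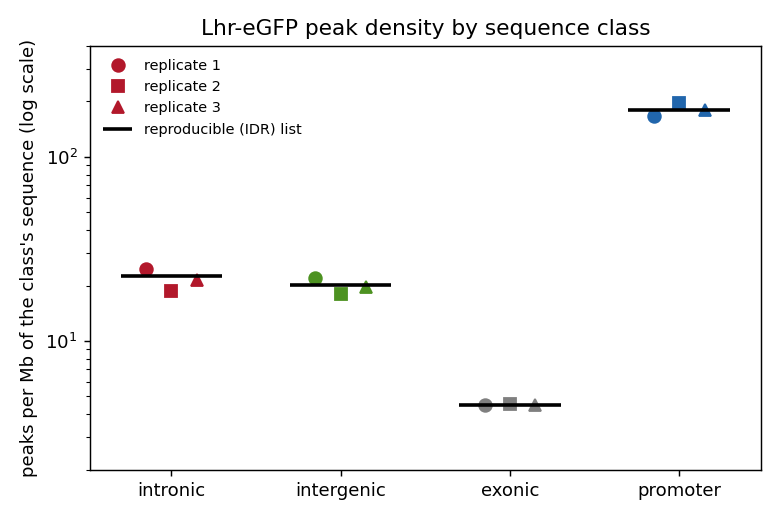
Peaks per Mb of each sequence class on a log axis, with points for the 5190 strongest peaks of each of the 3 libraries and a bar for the reproducible list. Intronic and intergenic points overlap near 20.03 peaks per Mb, with exons lower and promoters higher.

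Within introns the peaks crowded toward the start of genes. First introns of at least 1 transcript held 33.2 peaks per Mb, against 13.02 per Mb in later introns, a log2 difference of 1.35. The libraries gave 36.1, 27.9 and 31.4 per Mb in first introns, against 14.6, 10.4 and 12.3 per Mb in later introns, and the 2 ranges did not overlap (exact sign-flip permutation test p = 0.25, two-sided, the smallest possible). Of the 1048 peaks, 727 (69.4%) lay in a first intron. For 773 (73.8%) the nearest start site was one of the host gene itself. The same share was not counted for eligible intron sequence, so the 73.8% by itself shows no preference of the peaks. The median distance to a start site was 2672 bp, with quartiles at 1175 and 6211 bp and a highest value of 42288 bp.

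Density fell steadily with distance from start sites. Sequence 500 to 2000 bp from a start held 39.0 peaks per Mb, against 17.3 per Mb farther away, with 41.1, 34.1 and 37.6 per Mb near and 19.5, 13.8 and 16.2 per Mb far in the libraries. This is a log2 difference of 1.17 (exact sign-flip permutation test p = 0.25, two-sided). In finer steps there were 50.4 peaks per Mb at 500 to 750 bp, 28.8 at 1500 to 2000 bp, 18.1 at 5000 to 10000 bp and 7.29 beyond 20000 bp. The rule's border at 500 bp therefore cut through a slope. The nearest peak inside it lay at 503 bp with a signal of 342, and the nearest intronic summit outside it lay at 499 bp with a signal of 504.

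First introns were the denser class at each distance. At 500 to 1000 bp first introns held 56.4 peaks per Mb and later introns 27.2. At 2000 to 5000 bp the values were 30.2 in first introns and 15.9 in later introns, and beyond 10000 bp they were 16.3 and 7.88. In all 5 distance bands and all 3 libraries the first-intron value was the higher one. Peaks were sparse beside splice sites, with 8.17 per Mb within 100 bp of one and 31.4 per Mb at 500 to 1000 bp. Introns of 2000 to 5000 bp held 29.3 peaks per Mb, those up to 1000 bp held 14.8, and those over 50000 bp held 14.8.

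**Figure D2:**
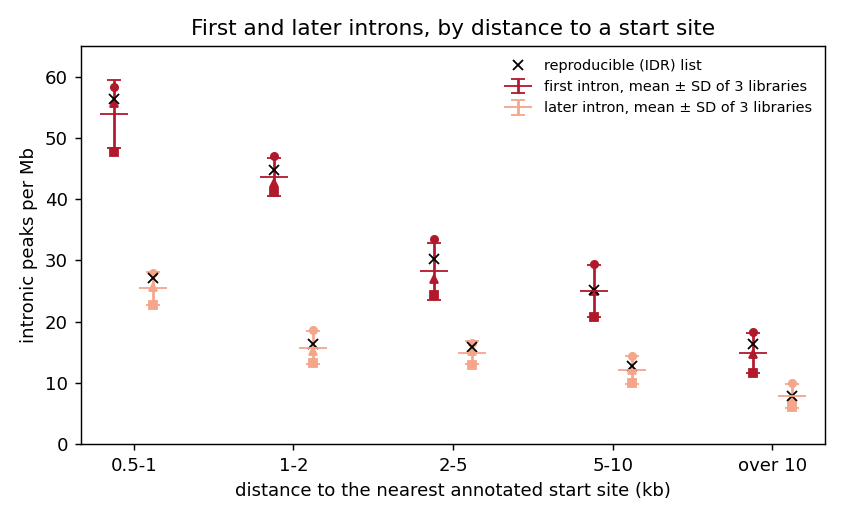
Intronic peaks per Mb by distance to the nearest annotated start site, for first introns (dark) and later introns (light). Small markers are the 3 libraries, bars the mean ± SD, and crosses the reproducible list. First introns lie above later introns in every band, and both fall with distance, to 16.3 and 7.88 peaks per Mb beyond 10 kb.

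The major arms were bound alike. Densities on 2L, 2R, 3L, 3R and X lay between 22.0 and 23.9 peaks per Mb. Chromosome 4, whose genes sit in HP1a-rich chromatin, held 5 intronic peaks, or 8.70 ± 3.01 per Mb (SD, n = 3 libraries; 8.70 in the reproducible list), over only 0.575 Mb. The Y chromosome held none over 0.956 Mb. A single summit lay in an annotated transposable element, 0.0954% of the intronic peaks, against 7.57% of background intron tiles, which are windows of eligible intron the length of a summit with 100 bp on each side, centred over 1000 bp from any peak of the relaxed list. Soft-masked repeats of any kind held 23.7% of summits and 22.3% of tiles. How well such sequence can be read by uniquely placed reads was not tested.

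The strongest intronic peaks were found by every library. The signal, the authors' enrichment value of a peak within its list, ran over the 1048 peaks from 173 to 4921 with a median of 260.4. The top one lay in the first intron of COX7AL2, named for a cytochrome c oxidase subunit, at chr2L:2193309-2193875. It was second of all 5190 peaks, and its ranks were 2, 2 and 1 in replicates 1, 2 and 3. The same intron of 4460 bp held the fourth strongest intronic peak, with a signal of 1947 and ranks 28, 20 and 22. Between these 2 in signal came the first intron of ush (u-shaped, a cofactor of GATA factors) at signal 2214 with ranks 11, 34 and 21, and CG11050 at 2191 with ranks 15, 19 and 18. The first intron of cno (canoe, an adherens junction protein) followed at 1717, with ranks 34, 31 and 49. The second intron of Trl, the gene of GAGA factor itself, held a peak of signal 1474 with ranks 39, 88 and 73.

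The others of the 15 strongest were sbb (a nuclear regulator of development) at 1591, CG9663 at 1472, Tlk (Tousled-like kinase) at 1444, Lk6 (a kinase of the translation factor eIF4E) at 1437 and CG32772 at 1416. An intron shared by the annotations of HmgD and HmgZ, which encode small DNA-bending proteins, held one of 1326. CG12769 followed at 1321, the nuclear receptor gene Hr3 with its overlapping genes CG12912 and CG46321 at 1191, and the ecdysone receptor gene EcR at 1130. All 15 were among the strongest peaks of all 3 libraries, and 12 of the 15 lay in a first intron. Intronic peaks made up 3 of the 15 strongest peaks of the list and 13 of the 100 strongest.

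All 4 listed promoter words were rarer in intronic than in promoter peaks. Words were counted as exact matches on either strand within 100 bp of the summit. TATCGATA, the DNA replication-related element bound by DREF and BEAF-32, stood in 0.573% of intronic peaks (0.435%, 0.691% and 0.605% in replicates 1, 2 and 3) and in 10.1% of promoter peaks (9.24%, 12.01% and 10.6%). The difference was -9.53 percentage points, and the shares of intronic and promoter peaks did not overlap between libraries (exact sign-flip permutation test p = 0.25, two-sided, the smallest possible). Intron tiles held the word in 0.321%, a difference of 0.25 points that rests on 6 intronic peaks. It was 0.15, 0.0704 and 0.14 points without replicates 1, 2 and 3, and among stronger peaks 1 of the 3 libraries lay below the tiles. These 6 peaks lay in Ugt50B3, Stt3A, Atg1, lncRNA:CR44357, kirre and bif. GGTCACACT, the word of the promoter protein M1BP, was in 3 intronic peaks (0.286%), against 10.3% of promoter peaks and 0.0849% of tiles. CATCNCTA, another core promoter word, was in 0.954% of intronic peaks, 7.30% of promoter peaks and 1.02% of tiles. CAGCTG stood in 6.87% of intronic peaks, 12.7% of promoter peaks and 7.44% of tiles. Of all coding start sites, bound or not, 6.44% held TATCGATA, 4.42% GGTCACACT, 4.46% CATCNCTA and 13.4% CAGCTG. Promoter peaks thus held the first 3 words more often than start sites in general, but not CAGCTG.

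The CTCF core word was the listed word that stood highest above the introns' own background. AGNTGGCGC was in 37 intronic peaks, 3.53%, with 2.78%, 3.92% and 3.33% in the 3 libraries. Intron tiles held it in 0.462%, so the share in intronic peaks was 7.65-fold higher, and each library lay above the tiles. Promoter peaks had it in 2.62% and intergenic peaks in 7.73%, so it was not the intronic class that held it most often. The word sat at the summit: 30 of the 37 peaks had it within 50 bp, with a median of 29 bp. The commonest letter at each place around the core was picked on the 37 copies, which by itself raises its share in them. It was a C at position -3 in 62.2% of the peaks, against 30.5% of the 750 tile copies (position 1 is the first letter of the word, and the base before it is 0). The variable letter at position 3 was A in 48.6% of the peaks and in 22.9% of the tile copies.

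Intronic peaks with the CTCF word were stronger and more often reproduced. Their median signal was 429, against 259 without the word, and 30 of 37 (81.1%) were found in all 3 libraries, against 54.4% of the others. In each library their median rank was better, at 2181, 1325 and 1265 with the word and 3146, 3165 and 3164 without it. Of the 262 strongest intronic peaks 8.02% had the word, and of the 262 weakest 1.15%. They also lay elsewhere in genes, since 43.2% were in a first intron, against 70.3% of the others. The libraries gave 46.9%, 47.1% and 48.5% with the word and 69.3%, 71.3% and 70.1% without it. Mean GC content of the windows within 100 bp of their summits was 41.4%, against 35.6% without the word, and the part of base composition in these differences was not tested.

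Some hosts of these 37 peaks are named here, picked after the values were seen and with no test. EcR, Eip74EF, Hr4 and Eip75B, the last with 2 peaks, held 5 of the 37, all found in 3 libraries, with signals of 477 to 1130. EcR encodes the ecdysone receptor, Eip74EF an ETS factor and Eip75B and Hr4 nuclear receptors of the cascade it starts. The EcR peak had ranks 268, 101 and 100 in replicates 1, 2 and 3, and the Eip74EF peak 641, 124 and 440. Another 5 lay in Antp, Abd-B, lncRNA:bxd and, with 2 peaks, lncRNA:iab8, genes of the Antennapedia and bithorax complexes that pattern the body axis. The signals of these last 5 peaks, in the Antennapedia and bithorax complexes, ran from 235 to 497, and 4 of the 5 were in all 3 libraries. The whole list of nuclear receptor and ecdysone response genes held 30 of the 1048 intronic peaks. With or without the word, Antp held 5 of the 1048, Abd-B 2, lncRNA:bxd 3 and lncRNA:iab8 5. lab and pb, also of the Antennapedia complex, held 3 and 1, all without the word. Whether the word is commoner in peaks of these genes was not tested. The Abd-B peak with the word had ranks 1868, 1559 and 1827, which lie close together, and the Antp peak with it 1322, 1611 and 706. On chromosome 4 the first intron of Asator, which encodes a kinase of the mitotic spindle matrix, held the word at a peak of signal 1041 with ranks 271, 93 and 158. The sequences printed above are those of the sites named here, without EcR, and of the CTCF-word peaks in RapGAP1 and Jupiter.

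The other insulator words stood less far above the tiles. TGCATACTT, a core of the Su(Hw) site, was in 13 intronic peaks, 1.24% (0.870%, 1.27% and 1.11% in the libraries), against 0.561% of promoter peaks, 2.58% of intergenic peaks and 0.537% of tiles. Among them were ImpL2, which encodes a secreted binder of insulin-like peptides, at signal 661, and one of the 2 CTCF-word peaks of Eip75B at 477. GAGAGAG, the GAGA factor word, was in 3.53% of intronic peaks, against 2.34% of promoter peaks and 2.44% of tiles. Here replicate 2 stood apart with 5.53%, against 2.52% and 3.02% in replicates 1 and 3. GAGAGAG was also rarer at the summit than beside it. In 50 bp bins it was in 0.382% and 0.763% of intronic peaks just before and after the summit, against 2.86% and 3.15% at 150 to 200 bp. The word of Zelda, the factor that opens the early zygotic genome, was in 0.763% of intronic peaks and 0.802% of tiles, and the Twist word in 2.58% of both. AGGATAA (Tramtrack) was in 0.954% of intronic peaks and 2.22% of tiles, and CACGTG (an E-box) in 1.15% of intronic peaks and 2.25% of tiles. Each library lay below the tiles for both. In all, 620 of the 1048 peaks (59.2%) held none of the 16 listed words.

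**Figure D3:**
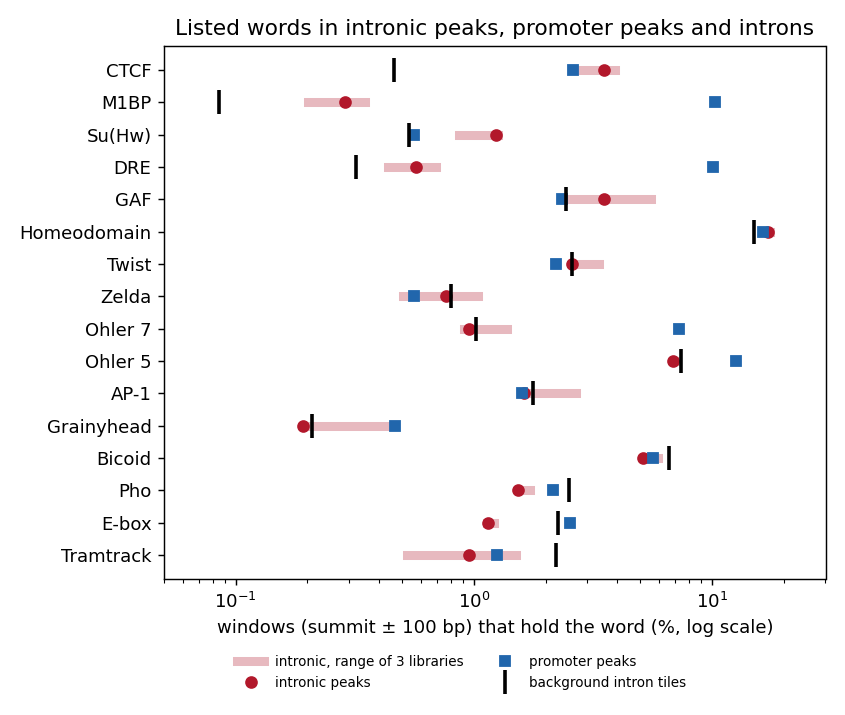
Share of windows (100 bp on each side of a summit or tile centre) that hold each of the 16 listed words, on a log axis, in intronic peaks (circles, with the range of the 3 libraries as a band), promoter peaks (squares) and background intron tiles (bars). The CTCF word lies farthest above the tiles for intronic peaks at 3.53%, while the DRE and M1BP words separate promoter peaks, at 10.1% and 10.3%, from intronic peaks.

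Intronic peaks were AT-rich at their summits. Mean GC content was 35.8% in intronic peaks (35.5%, 36.6% and 36.4% in the libraries), 36.7% in promoter peaks and 37.0% in intergenic peaks, against 40.3% in intron tiles. The dip was narrow. In 50 bp bins GC was 33.8% and 33.9% just before and after intronic summits. At 250 to 300 bp it was 43.8% before and 43.4% after them, above the tiles. The 10 8-letter words furthest above the tiles, chosen on the intronic peaks themselves, were all made of A and T with at most 1 C or G. AATATTTA stood in 12.2% of intronic peaks and 5.12% of tiles, and ACAAATAT in 7.54% of intronic peaks and 2.71% of tiles. In peaks that did not choose them, AATATTTA was in 9.45% of intergenic and 8.20% of promoter peaks.

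A second, GC-containing word stood beside the summits rather than on them. It was picked after the windows had been read, so its frequency in intronic peaks is a description only. ACAGTGG, or CCACTGT on the other strand, was in 102 intronic peaks, 9.73% (10%, 8.18% and 9.98% in the libraries), against 2.23% of tiles. Promoter peaks and intergenic peaks, which had no part in the choice, held it in 4.37% and 6.70%, against 2.28% of all coding start sites and 2.13% of intergenic tiles. The overlapping longer word CACTGTGC was in 52 intronic peaks (4.96%) and 0.721% of tiles. ACAGTGG stood together with the CTCF core word in 3 peaks. Peaks with ACAGTGG were of usual strength, with a median signal of 283, against 259 without it, and 50.98% of them were found in all 3 libraries. In 25 bp steps from the summit ACAGTGG was in 1.53% of intronic peaks at 0 to 25 bp, in 4.20% at 50 to 75 bp, in 4.39% at 75 to 100 bp and in 0.763% at 475 to 500 bp. The CTCF word had the opposite profile, with 1.43% at 0 to 25 bp and 0.382% at 75 to 100 bp.

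The word also pointed one way. This too was read after the values were seen, so its share in intronic peaks is a description only. At 50 to 125 bp from an intronic summit, 119 of 132 copies (90.2%) had the GG end of ACAGTGG toward the summit. The libraries gave 91.5%, 83.3% and 85.0%. Copies at the same distance from tile centres pointed inward in 50.9% of cases. Promoter peaks had 83.2% of 137 copies inward and intergenic peaks 86.1% of 36, so the layout was not limited to introns. Farther out, at 125 to 500 bp, the share in intronic peaks was 60.6% of 180 copies. Nearer, at 0 to 50 bp, it was 83.9% of 31 copies, with 66.7%, 66.7% and 75.7% in the libraries. Of the 148 intronic peaks with the word within 150 bp, 28 (18.9%) had an inward copy on both sides, a median of 157 bp apart from centre to centre. The share was 11.9% in promoter peaks (24 of 202), 9.26% in intergenic peaks (5 of 54) and 0.994% in tiles with the word. NFAT (the fly homologue of a calcium-regulated transcription factor) and CG32264, printed above, had their copies 161 and 155 bp apart. All but 1 of the 148 peaks had the word outside soft-masked repeats.

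**Figure D4:**
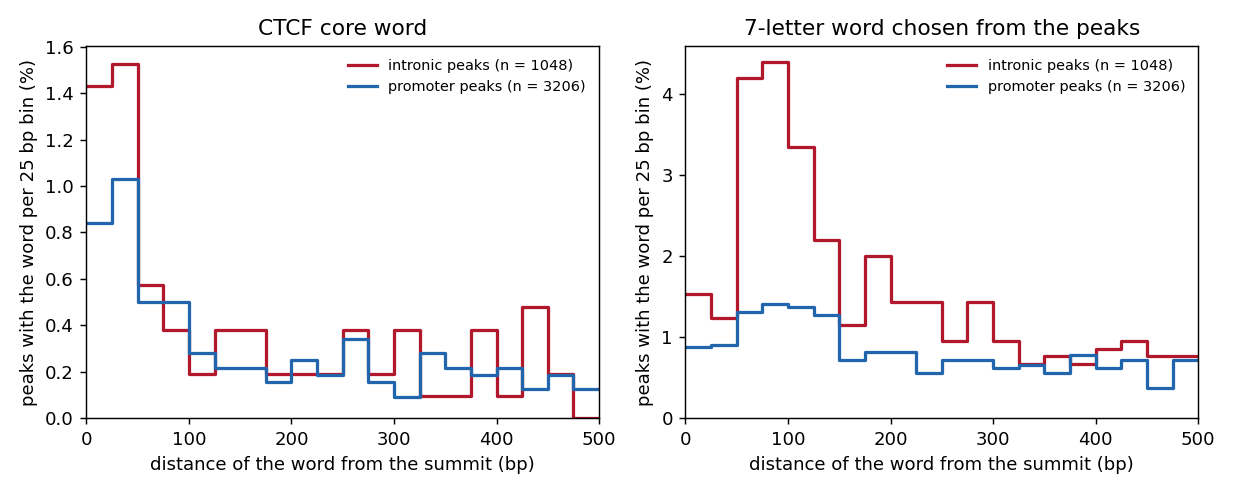
Share of peaks with a word in each 25 bp bin of distance from the summit, for the CTCF core word (left) and ACAGTGG (right, chosen from the peaks), in intronic and promoter peaks. The CTCF word is densest within 50 bp, while ACAGTGG reaches 4.39% of intronic peaks at 75 to 100 bp and is low at the summit.

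The X chromosome held the ACAGTGG word in a larger part of its intronic peaks. It was in 36 of 234 (15.4%) on X, against 66 of 809 (8.16%) on the 4 major autosomal arms. The libraries gave 13.1%, 12.6% and 15.5% on X, against 9.20%, 7.11% and 8.46% on the autosomal arms, and these ranges did not overlap. Intron tiles differed little between them, with 2.29% on X and 2.22% on the autosomal arms, and promoter peaks had 5.10% and 4.25%. This contrast too was read after the values were seen and carries no test.

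The intronic peaks were spread over many genes. They lay in introns of 692 genes, of which 662 were protein-coding, or 7.4% of the 8947 protein-coding genes with eligible intron sequence. Most of these hosts, 437, had 1 peak, and 40 had 4 or more. The share of genes that hosted a peak followed intron length, from 0.466% of genes with up to 1 kb of eligible intron to 53.7% of those with over 50 kb. Counts below must be read against that slope, since host genes had a median of 13458 bp of eligible intron and the other genes 380 bp.

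The 5 genes with most intronic peaks were on X and 2L. The noncoding gene lncRNA:CR44357 on X held 15 and the overlapping CG1677 held 12 of the same peaks, which were spread between nested genes such as Dok, unc-119, brk and CBP. Their strongest peak had a signal of 904. kirre, a myoblast fusion receptor gene with 333 kb of eligible intron, held 10, of which 3 were in all 3 libraries. Tlk and ush held 8 each over 53.1 and 49.9 kb, or 151 and 160 per Mb. In ush the signals ran from 208 to 2214.

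Genes of signalling and development hosted intronic peaks more often than the 7.4% of all genes. Of 48 signalling ligand and receptor genes with eligible introns, 17 (35.4%) hosted at least 1, with 37.5%, 31.2% and 35.4% in the libraries and 45.1 peaks per Mb. InR, the insulin receptor gene, led with a signal of 951 and ranks 175, 262 and 248, followed by the Wnt receptor gene fz at 682, N (Notch) at 585 and Egfr at 584. The Toll receptor gene Tl and the FGF gene bnl hosted none over 38.1 and 37.2 kb. Of 23 nuclear receptor and ecdysone response genes, 9 (39.1%) hosted peaks, 30 in all, at 44.0 per Mb. Hr3, EcR, Hr4 and Eip74EF led, at 1191, 1130, 914 and 801. Eip93F and Eip78C, also of the ecdysone cascade, hosted none over 51.6 and 32.1 kb. Of 46 developmental transcription factor genes, 14 (30.4%) hosted peaks, at 34.0 per Mb. They were led by aop (the Yan repressor) at 560, pb at 540, Antp at 497 and Abd-B at 394, while Ubx and twi hosted none over 63.2 and 52.1 kb. Per length these 3 lists stood above the 22.5 per Mb of all eligible introns. Their median eligible intron was 6.99 kb for signalling, 20.7 kb for nuclear receptor and 12.2 kb for transcription factor genes. Of all protein-coding genes, 20.3% with 5 to 10 kb, 32.6% with 20 to 50 kb and 27% with 10 to 20 kb hosted a peak. The shares of the lists are thus nearer to those of genes of like length than to 7.4%.

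Neuronal, RNA-binding and muscle lists lay below the 22.5 per Mb of all eligible introns. Of 53 axon guidance and adhesion genes, 15 (28.3%) hosted peaks, but at 12.6 per Mb. kirre at 726, the netrin receptor gene fra at 573, caps at 465 and NetB at 458 led them. dpr6 and Lar hosted none over 139.8 and 129.7 kb. Of 33 genes of RNA-binding regulators, 13 (39.4%) hosted peaks at 10.2 per Mb. Among them were mub at 756, the splicing regulator gene Rbfox1 at 677, the translational repressor gene brat at 581 and shep at 396, with none in bru3 and Rbp6 over 263 and 162 kb. Of 44 ion channel and neurotransmitter receptor genes, 4 (9.09%) hosted peaks at 4.61 per Mb, the lowest density of the lists with a host. They were the channel genes KCNQ at 311, Ca-alpha1T at 284 and Shal at 208, and the phosphodiesterase gene dnc at 209. Sh and nAChRalpha6 hosted none over 101 and 83.8 kb. Of 27 muscle genes, 3 hosted peaks (11.1%), namely wb at 317, Zasp66 at 257 and Msp300 at 186, and Zasp52 and if hosted none. The median eligible intron was 33.8 kb for axon guidance, 20.2 kb for RNA-binding, 23.4 kb for ion channel and 6.27 kb for muscle genes. Of all protein-coding genes, 32.6% with 20 to 50 kb and 20.3% with 5 to 10 kb hosted a peak. The part of intron length and of distance to start sites in the densities of these lists was not tested.

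Insulator and chromatin genes lay above all genes in both measures. Of 41 with eligible introns, 6 (14.6%) hosted 10 peaks, against 7.4% of all protein-coding genes with a host. Over their 0.127 Mb this is 78.8 per Mb, on a short base. Trl at 1474, the Trithorax gene trx at 829, the Polycomb-group gene ph-p at 396 and Mi-2, a nucleosome remodeller gene, at 363 led, and osa and Ino80 hosted none over 15.7 and 15.2 kb. The list's median eligible intron was 0.764 kb, but Trl, trx, ph-p and Mi-2 had 6.05, 9.36, 4.78 and 11.9 kb. Of all protein-coding genes, 0.466% with up to 1 kb, 10.1% with 2 to 5 kb, 20.3% with 5 to 10 kb and 27% with 10 to 20 kb hosted a peak. The part of intron length and of distance to start sites in the list's values was not tested. None of 22 ribosomal protein genes with eligible introns hosted a peak, over 0.00426 Mb. Lhr itself and BEAF-32 have no eligible intron sequence. Hmr has 174 bp and the gene of HP1a 325 bp, and neither hosted a peak.

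Recovery across libraries was lower for intronic than for promoter peaks in 2 of the 3 libraries. Of the 1048 intronic peaks, 580 (55.3%) had a summit within 100 bp among the 5190 strongest peaks of all 3 libraries, against 67.5% of promoter peaks, 63.6% of intergenic peaks and 64.3% of all peaks. The difference to promoter peaks was -12.2 percentage points. Measured from the peaks of each library, intronic minus promoter recovery was -22.5 points for replicate 1, 4.74 for replicate 2 and -9.42 for replicate 3 (exact sign-flip permutation test p = 0.5, two-sided). Replicate 2 thus went the other way, and without it the difference in the reproducible list was -2.05 points. Replicate 2 itself held 69.8% of the intronic peaks and 86.7% of the promoter peaks, while replicate 1 held 88.3% and 83.5%, and replicate 3 held 81.1% and 87.3%. In the longer relaxed lists 88.8% of intronic peaks and 86.6% of promoter peaks were in all 3 libraries.

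Signal moved with recovery. Intronic peaks were weaker, with a median signal of 260.4, against 327 for promoter peaks and 288 for intergenic peaks. Their share grew from 12.9% of the strongest decile of the list to 27.2% of the weakest. Within the strongest quartile of the list 97.9% of intronic peaks and 97.0% of promoter peaks were found in all 3 libraries. In the next quartile the values were 93.8% for intronic and 86.6% for promoter peaks. Below that they were 57.8% for intronic and 61.7% for promoter peaks, and in the weakest quartile 10.2% for intronic and 8.94% for promoter peaks. Intronic recovery was thus the higher one in 3 of the 4 quartiles.

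**Figure D5:**
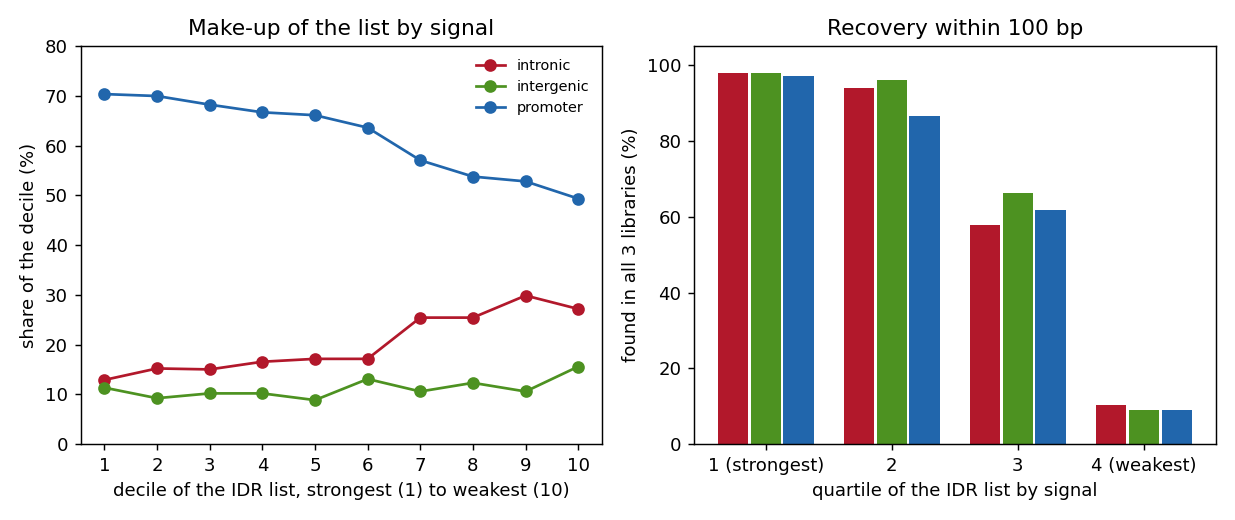
Left, share of intronic, intergenic and promoter peaks in each decile of the reproducible list from strongest to weakest. Right, share found in all 3 libraries within 100 bp, by quartile of the list. The intronic share grows to 27.2% in the weakest decile, and recovery falls with signal in all classes, to 10.2% of intronic peaks in the weakest quartile.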

How the data were processed

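The 3 libraries are biological replicates of 1 group, numbered per the labels. The deposited files are narrowPeak lists for assembly dm6 (the dm3 lists were not used): 1 relaxed list per library, with 22598, 30000 and 18934 peaks for replicates 1, 2 and 3, a combined relaxed list of 20761 peaks, and a list thresholded by the authors on the irreproducible discovery rate (IDR) with 5190 peaks. The signal in these lists is the authors' enrichment value of a peak and cannot be set side by side across lists. The −log10 q-value deposited beside it takes its highest value in 37.4% of the intronic peaks and was not used for ranking. The authors' remaining deposited column used here is the offset of the summit from the peak's start. The sources used here name no peak caller, aligner or IDR threshold. Read depth is unknown because the files give no reads per peak, which leaves values without counting intervals.

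From these files the summits were classed with Release 6 sequence and Ensembl gene models by scripts in Python 3.11.15 with NumPy 2.4.6, and plotted with matplotlib 3.10.9. Transposable element records gave no start sites, exons or introns. Each library was represented by its 5190 strongest peaks, as many as the IDR list has. A peak counted as found in a library when a summit lay within 100 bp. Densities are peaks per Mb of sequence under the same rule as the summits. Background tiles numbered 162511 in introns and 112203 in intergenic sequence. Values over libraries were tested by an exact sign-flip permutation test, two-sided, which cannot go below 0.25 with 3 libraries or 0.5 with 2. It gives that lowest value whenever all libraries share a sign, however far apart they lie. The p-values here therefore do not measure the spread between libraries. The scripts were tested on simulated peaks of known density.

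The named genes are hosts of the 15 strongest intronic peaks, the 5 genes with most of them, up to 4 hosts by signal and up to 2 hostless genes with most eligible intron of each of 9 gene lists, and Lhr, Hmr, Su(var)205 and BEAF-32. Named words are 16 listed ones and the 10 8-letter words furthest above the tiles. The words ACAGTGG and CACTGTGC, the hosts of peaks with the CTCF, Su(Hw) and DRE words, and the hosts of paired words were added after their values were seen. In the gene lists, 16 names matched no gene and were left out. The members, gene lists, words and tests were chosen with earlier results of these data known. Alternatives were other peak lists, each library left out in turn, other distances, borders and gene models.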

Additional observations from a re-analysis of the deposited data

How the results depend on the processing

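Of 7 results, 5 kept the direction of their value in the peak list under each alternative run: first against later introns (log2 0.79 to 1.53), near against far sequence (0.64 to 1.44), intronic against promoter recovery (-25.3 to -2.05 points), the DRE share against promoter peaks (-14.5 to -5.42 points) and against intron tiles (0.07 to 0.82 points). Not every library followed: among stronger peaks the DRE share against tiles averaged -0.0087 points over libraries, with 2 of 3 above the tiles, and recovery without replicate 2 or replicate 3 had 1 of 2 libraries in its direction. Their p-values cannot pass 0.05 and say nothing of stability. Intronic against intergenic density, a log2 ratio of 0.17, turned to -0.057 among the 2595 strongest peaks and to -0.031 among peaks found in all 3 libraries, and ran from -0.012 to 0.081 when a replicate was left out. The cause was not tested. The number of intronic peaks, 1048, was 399 among the 2595 strongest peaks, 6149 in the combined relaxed list and 580 among peaks found in all 3 libraries, and ran from 631 to 766 when a replicate was left out. These lists differ in length, and the cause of the changes was not tested. No paired analysis was possible because there is 1 group and no second one to share its replicate numbers, while classes of peaks were compared within each library. With no read counts, a peak missing from a library cannot be told apart from one below its depth, and words are exact matches, so degenerate sites are not counted.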

Other observations

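Below the reproducible list, the combined relaxed list held another 5101 intronic peaks by the same rule. Of these, 17.6% were in the relaxed lists of all 3 libraries, a share that the authors' threshold on reproducibility lowers by its nature. A first intron held 58.7% of them, and 2.14% lay in an annotated transposable element. Their mean GC content was 38.9%, between the 35.8% of the listed intronic peaks and the 40.3% of intron tiles. The CTCF core word was in 0.902% of them and ACAGTGG in 5.08%. At 50 to 125 bp from the summit, 67.2% of their 241 ACAGTGG copies pointed inward, against 90.2% in the listed intronic peaks and 50.9% around tile centres.

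Of the 28 intronic peaks with an inverted pair of ACAGTGG words, 5 are named here. wg (wingless, a Wnt ligand) held one with a signal of 191, found among the strongest peaks of only 1 library. wts (warts, a Hippo pathway kinase) held one of 209, found in 3 libraries. Sema1a (a transmembrane semaphorin) held 2, at 382 in 3 libraries and at 192 in 2. An intron of lncRNA:iab8 held one of 214, found in 2 libraries. These were picked after their values were seen and stand for no gene group.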
